A study of Neurospora crassa OR74A with 12 samples.

Results

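The carotenoid pathway of *Neurospora crassa* was followed through 5 genes, set by their locus identifiers and not by a cut on measured values. Earlier results of these data were known at that time. The 5 genes are *al-3* (NCU01427), *al-2* (NCU00585), *al-1* (NCU00552), *cao-2* (NCU11424) and *ylo-1* (NCU04013), out of the 10685 genes in the deposited table of read counts. The libraries came from mycelial RNA of a WT strain and a knockout, *upf-1*KO, in which *upf-1*, a core gene of nonsense-mediated mRNA decay, was deleted, both cultured without H2O2 or with 20 mM H2O2. Each of these 4 groups held 3 libraries. The methods describe the replicates as independent pools. The labels give OR74A for all 12 samples, whereas the methods name wild-type strains with and without the *bd* mutation and describe the knockout as made in a *ku70*RIP host with *bd*, and state that all strains share the *bd* background. The labels alone do not settle which WT strain was sequenced. The methods describe culture under constant light, and the length of the H2O2 treatment is not given in the sources used here.

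*N. crassa* is orange because it makes carotenoids that end in the acid neurosporaxanthin. AL-3 makes geranylgeranyl diphosphate, AL-2 joins pairs of it into phytoene and later closes the ring of the product, and AL-1 desaturates phytoene. CAO-2 then cleaves torulene, and YLO-1 oxidises the resulting aldehyde to neurosporaxanthin. In mycelium the *al* genes are known as classical light-induced genes, switched on by the white collar complex of WC-1 and WC-2 and damped by the photoreceptor VVD, and carotenoids also accumulate in the asexual spores, the conidia. Carotenoids are known to quench reactive oxygen species. The *al-3* gene is known to give more than one transcript, one of them tied to conidiation, and a count per gene does not separate them.

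Coordinates are those of the deposited table, on the NC12 assembly. *al-2* (chromosome I, 7920916 to 7924255) and *al-1* (chromosome I, 8029857 to 8032395) are separated by 105601 bases that hold 40 other genes. *al-3* lies on chromosome V (4030155 to 4032913) and shares 32 bases with NCU01426 (chromosome V, 4027782 to 4030186), so its count is uncertain to that extent, since the strand setting of the counting is not stated. *cao-2* (chromosome VII, 2483 to 4931) lies at the very start of its chromosome in the table, with only 1 gene before it, and *ylo-1* is on chromosome VI (2441355 to 2444495). The counted length was 2759 bases for *al-3*, 3212 for *al-2*, 2354 for *al-1*, 2388 for *cao-2* and 3057 for *ylo-1*. No gene other than *al-3* overlapped another gene of the table.

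Library depth ran from 5891672 to 7703271 reads on genes. As a check of the labels, the *upf-1* locus (NCU04242) held 741, 748 and 622 reads in untreated WT and 232, 232 and 236 in untreated *upf-1*KO, and with H2O2 591, 501 and 588 against 374, 257 and 375, lower in every *upf-1*KO library though not at 0. Counts were scaled with TMM factors and brought to the mean library size, and such values are called normalized counts below. All 5 members passed the filter on low counts with 7878 genes in all, and edgeR's quasi-likelihood test was fitted to all of these genes over the 12 libraries. A gene is called changed at a Benjamini-Hochberg adjusted p-value under 0.05 over all 7878 genes. With 3 libraries on each side, the smallest two-sided p of an exact permutation test is 0.1, so that test was not used for single genes. H2O2 altered the makeup of the libraries: the 10 most abundant genes held between 10.1% and 12.2% of the reads without H2O2 and between 12.5% and 29.8% with it, and the TMM factors ran from 1.30 to 1.53 without H2O2 and from 0.481 to 1.12 with it. Replicate 2 of *upf-1*KO with H2O2 stood apart from its replicates, with a TMM factor of 1.12 against 0.802 and 0.836, and the lowest Spearman correlation between replicates of this group, across genes, was 0.940. In WT with H2O2, replicate 2 had the lowest depth of all libraries and a TMM factor of 0.481 against 0.602 and 0.589. Its 10 most abundant genes held 29.8% of the reads, against 23.8% and 18.8% in replicates 1 and 3. These are bulk libraries, in which fewer cells of a type and less RNA per cell cannot be told apart.

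Per kilobase of counted length, the pathway was led by its last step and by *al-2* in the untreated WT strain. The mean level of *ylo-1* was 515 ± 20.6 normalized counts per kilobase (SD, n = 3), that of *al-2* 449.7 ± 13.3 and that of *al-3* 250.4 ± 13.2 per kilobase. *cao-2*, with 97.9 ± 3.93 normalized counts per kilobase, and *al-1*, with 94.3 ± 19.9, were the least abundant and overlapped. In untreated *upf-1*KO the order on this scale was *al-2* (699 ± 17.7), *ylo-1* (581 ± 23.8), *al-1* (201 ± 2.23), *al-3* (142 ± 5.32) and *cao-2* (122 ± 15.7, SD, n = 3), and the highest *cao-2* library lay just under the lowest *al-3* library. *al-1* thus lay below *al-3* in untreated WT and above it in untreated *upf-1*KO, and *al-2* and *ylo-1* exchanged the first and the second place. With H2O2, the WT strain had *al-2* at 948 ± 575 and *ylo-1* at 535 ± 61.7 normalized counts per kilobase, above *al-1* (217 ± 45.7), *al-3* (204 ± 28.2) and *cao-2* (178 ± 65.6, SD, n = 3), and these last 3 genes overlapped. *upf-1*KO with H2O2 had *al-2* at 883 ± 38.9 and *ylo-1* at 845 ± 75.6 per kilobase, which overlapped, then *al-3* (421 ± 350.3), *cao-2* (249.99 ± 121) and *al-1* (230.2 ± 70.5, SD, n = 3), which overlapped one another, and the highest *al-3* library also reached into the *ylo-1* range.

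**Figure D1:**
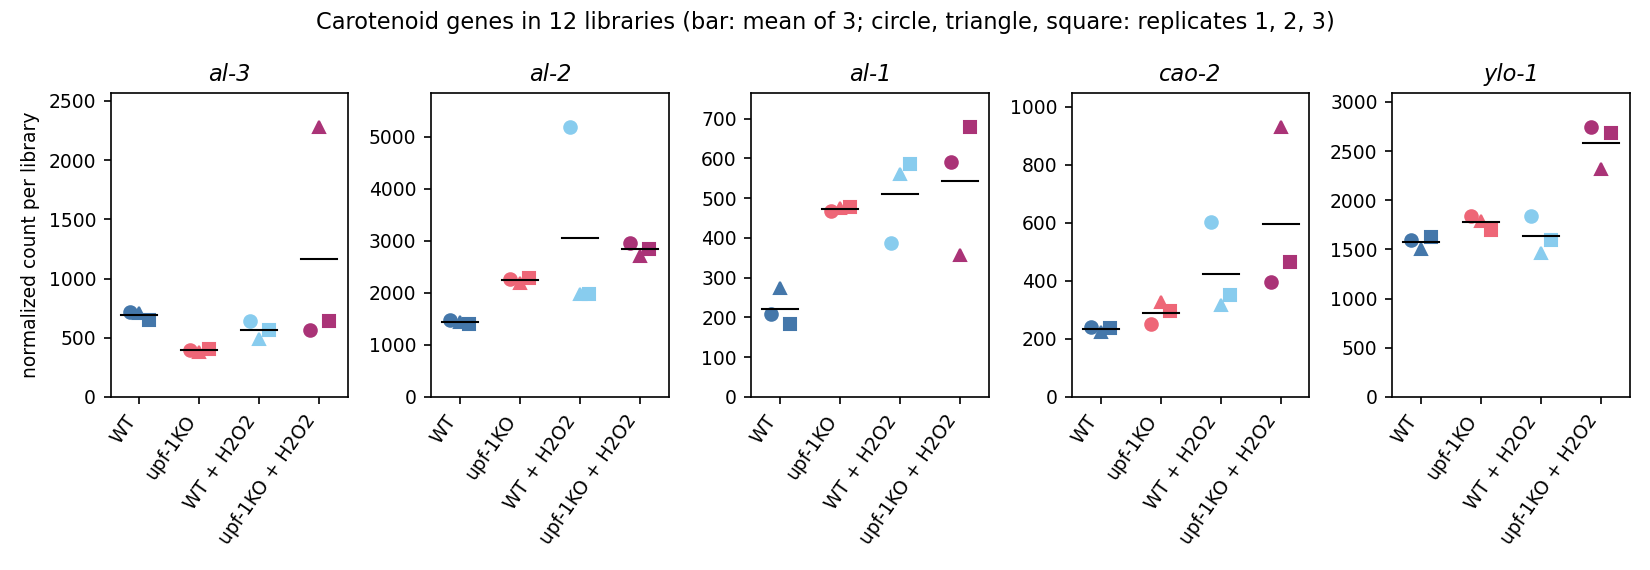
Normalized counts of *al-3*, *al-2*, *al-1*, *cao-2* and *ylo-1* (vertical axes, each from 0) in the 3 libraries of each of the 4 groups (horizontal axis), with black bars at the group means. Untreated *al-1* lies at 183 to 274 in WT and at 467 to 477 in *upf-1*KO, untreated *al-3* is lower in *upf-1*KO, and single libraries stand out with H2O2, *al-2* at 5179 in WT replicate 1 and *al-3* at 2278 in *upf-1*KO replicate 2.

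The first comparison asks what the loss of *upf-1* does to the pathway without H2O2. *al-1*, for the phytoene desaturase, was about 2-fold higher in *upf-1*KO and was the only member called. The other members differed by less and did not pass the test, although none of the 5 genes had overlapping groups. *al-2*, *al-1*, *cao-2* and *ylo-1* lay above the WT libraries in every *upf-1*KO library, and *al-3* lay below them.

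*al-1* was counted at 209, 274 and 183 normalized counts in untreated WT and at 467, 475 and 477 in *upf-1*KO. The lowest *upf-1*KO library was thus well above the highest WT library, and the 3 *upf-1*KO libraries were close together. The log2 fold change was 1.09 (SE 0.25, 95% interval 0.54 to 1.64, edgeR adjusted p = 0.0118), a 2.13-fold increase. The *al-1* call was lost without untreated WT replicate 1 (adjusted p = 0.0563) or replicate 3 (edgeR adjusted p = 0.0644), with log2 fold changes of 1.05 and 0.97.

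*al-3*, the gene of the geranylgeranyl diphosphate synthase at the entry of the pathway, had 716, 707 and 649 normalized counts in the untreated WT libraries. In untreated *upf-1*KO it had 397, 377 and 405. The groups did not overlap, and *al-3* was the only member with lower values in *upf-1*KO. Its log2 fold change was -0.81 (SE 0.41, 95% interval -1.72 to 0.09, edgeR adjusted p = 0.219), so it was not called. It was called without replicate 2 of *upf-1*KO with H2O2 (-0.82, edgeR adjusted p = 0.000315), a library of neither group that enters the shared spread.

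*al-2*, for phytoene synthase and lycopene cyclase, had 1486, 1445 and 1401 normalized counts in the untreated WT libraries and 2263, 2183 and 2294 in *upf-1*KO. The spread within each group was small beside the gap between the groups, yet the log2 fold change of 0.64 (SE 0.30) gave an edgeR adjusted p of 0.185. Without WT replicate 1 with H2O2, *al-2* was called (0.76, edgeR adjusted p = 0.000365). *cao-2*, for the oxygenase that cleaves torulene, had 240.0, 223 and 238 normalized counts in the WT strain and 251, 326 and 295 in *upf-1*KO, a log2 fold change of 0.31 (SE 0.32, edgeR adjusted p = 0.56). *ylo-1*, for the aldehyde dehydrogenase of the last step, had 1591, 1505 and 1627 against 1839.7, 1791 and 1696 normalized counts, a log2 fold change of 0.17 (SE 0.13, edgeR adjusted p = 0.429). The 95% interval of the *ylo-1* difference ran from -0.12 to 0.46, so that a change of 2-fold lay outside it.

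In this comparison 1 of the 5 genes was called higher, against 10.4% of all genes tested, and 4 of 5 lay above the WT range without overlap, against 25.7% of all genes. For lower values, 1 of 5 lay below the WT range without overlap, against 40.3% of all genes. No member was called lower (edgeR, and also 0 at an unadjusted p-value under 0.05 and 0 with DESeq2), against 4.71% of all genes. The median log2 fold change was 0.31 for the 5 genes and -0.13 for all genes tested. The SEs above use the spread of all 12 libraries, including the uneven ones with H2O2. When only the 6 untreated libraries were fitted, all 5 members were called: *al-1* (1.21), *al-2* (0.76), *cao-2* (0.44) and *ylo-1* (0.30) higher and *al-3* (-0.69) lower, with adjusted p-values between 1.55e-08 and 0.00137 from edgeR. The share of all genes called in that fit of 6 libraries was not counted, so these calls have no background beside them. The sign of each of the 5 log2 fold changes was the same under every alternative tried.

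**Figure D2:**
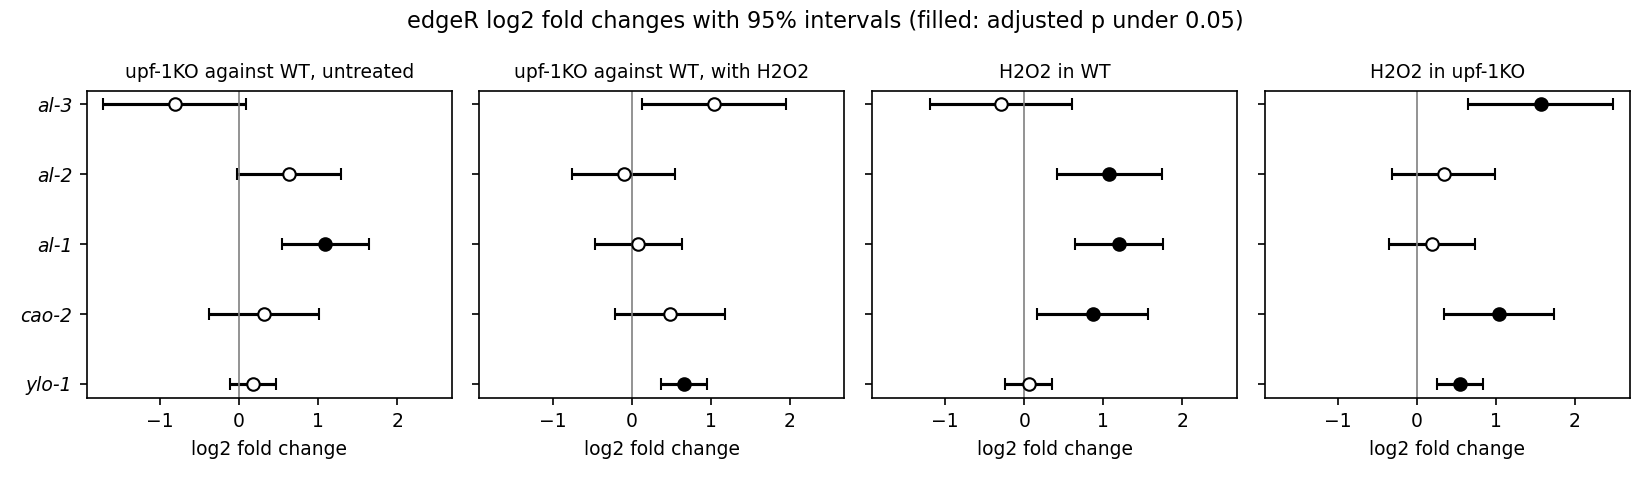
Log2 fold changes of the 5 genes (points, horizontal axis) with 95% intervals (bars) from edgeR in 4 comparisons, with filled points at an adjusted p-value under 0.05. *al-1* is filled for untreated *upf-1*KO against WT, *ylo-1* for *upf-1*KO against WT with H2O2, *al-2*, *al-1* and *cao-2* for H2O2 in the WT strain, and *al-3*, *cao-2* and *ylo-1* for H2O2 in *upf-1*KO.

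Ratios within a library do not depend on how libraries are scaled. Of the reads per kilobase on the 5 genes, *al-3* held 17.8% ± 0.653 in the untreated WT libraries and 8.16% ± 0.295 in untreated *upf-1*KO (SD, n = 3). The share of *al-1* was 6.69% ± 1.38 in untreated WT against 11.5% ± 0.175 in *upf-1*KO, and that of *al-2* 31.9% ± 0.367 and 40.1% ± 0.970 (SD, n = 3). Neither the *al-3*, the *al-2* nor the *al-1* shares overlapped between the strains. *cao-2* kept to 6.96% ± 0.302 and 6.97% ± 0.927 (SD, n = 3). Per kilobase, the ratio of *al-1* to *al-3* ran from 0.330 to 0.454 in untreated WT and from 1.38 to 1.48 in untreated *upf-1*KO. The ratio of *al-2* to *al-3* was 1.80 ± 0.0507 and 4.91 ± 0.0598 (SD, n = 3). The balance between the reads on *al-3* and those on *al-1* and *al-2* therefore differed between the untreated strains in every library, whichever scaling is used. Enzyme levels were not measured. With H2O2, the ratio of *al-2* to *al-3* ranged from 3.02 to 6.93 in the WT libraries and from 1.02 to 4.48 in *upf-1*KO, and both ranges were wide.

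**Figure D3:**
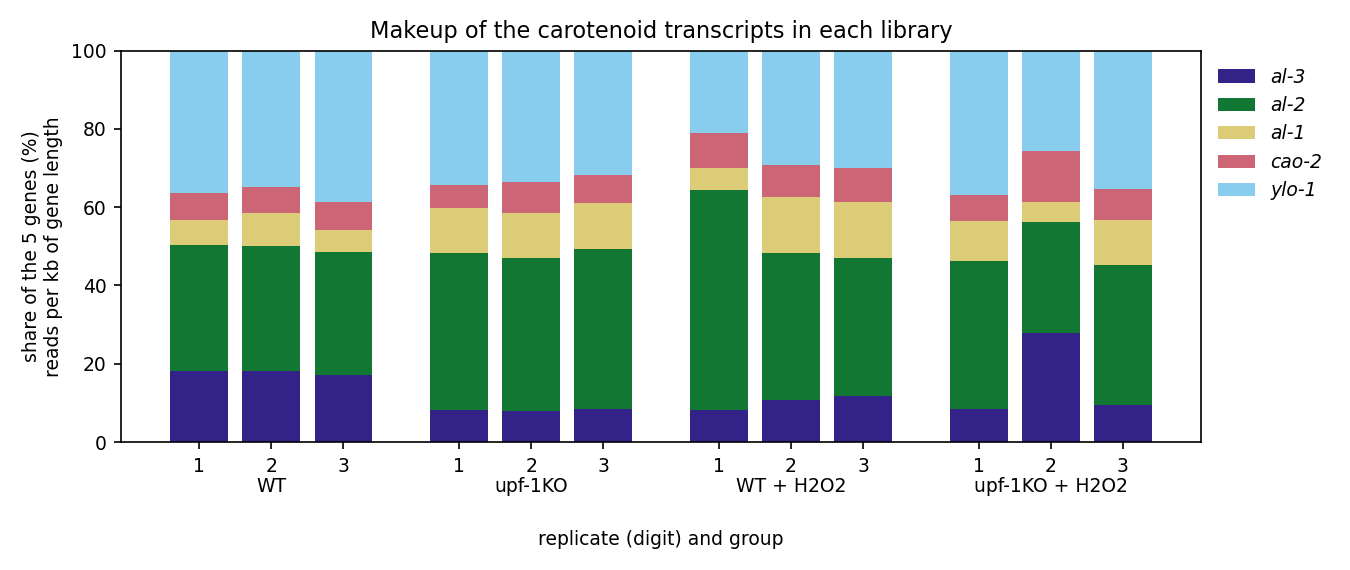
Share of each gene (colours, vertical axis in percent) among the reads per kilobase on the 5 genes in each of the 12 libraries (bars). The *al-3* share runs from 17.0% to 18.2% in untreated WT and from 7.85% to 8.43% in untreated *upf-1*KO, and it reaches 27.8% in replicate 2 of *upf-1*KO with H2O2.

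The second comparison follows the WT strain upon H2O2 treatment. *al-2*, *al-1* and *cao-2* were called higher, with fold changes of 2.11, 2.30 and 1.82, while *al-3* and *ylo-1* did not pass the test. All 5 log2 fold changes moved with the scaling of the libraries, and those relative to the median gene moved little, by construction. With library totals alone in place of TMM factors, no member was called higher and *al-3* and *ylo-1* were called lower.

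*al-1* had 387, 559 and 586 normalized counts in the H2O2-treated WT libraries, all above the untreated WT libraries with at most 274. The log2 fold change of *al-1* was 1.20 (SE 0.25, edgeR adjusted p = 0.00181). *al-2* had 5179 normalized counts in replicate 1 with H2O2 and 1984 and 1973 in the other replicates, against at most 1486 without it. All treated libraries were higher, but replicate 1 stood far above the others. The log2 fold change of *al-2* was 1.08 (SE 0.30, edgeR adjusted p = 0.00982), and it was 0.53 and still called without that replicate (edgeR adjusted p = 0.00203). Among all genes tested, 5.84% stood at least as far above both other replicates in this library as *al-2* did, at 2.61 times the next highest value.

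*cao-2* had 604, 317 and 353 normalized counts with H2O2, again highest in replicate 1, and at most 240.0 without it. The groups did not overlap, and the log2 fold change was 0.86 (SE 0.32, edgeR adjusted p = 0.0369). This call for *cao-2* was lost without WT replicate 1 with H2O2 (0.59, adjusted p = 0.112), without any 1 of the 3 untreated WT libraries (adjusted p between 0.081 and 0.096), without untreated *upf-1*KO replicate 3 (adjusted p = 0.0519), with the replicate number as a block (0.87, adjusted p = 0.0519) and when every library had to hold at least 10 counts of a gene (edgeR adjusted p = 0.0531). Library totals alone (-0.35) and a 2-fold threshold ended it as well.

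*al-3* had 642, 486 and 562 normalized counts upon H2O2 treatment of the WT strain, below the untreated range of 649 to 716. Its log2 fold change was -0.29 (SE 0.41, edgeR adjusted p = 0.564). Without replicate 2 of *upf-1*KO with H2O2, which belongs to neither group, nearly the same value of -0.30 was called (edgeR adjusted p = 0.046). *ylo-1* had 1839.6, 1468 and 1596 normalized counts with H2O2 and overlapped the untreated libraries, with a log2 fold change of 0.05 (95% interval -0.24 to 0.35).

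Upon H2O2 in the WT strain, 3 of the 5 genes were called higher, against 26.5% of all genes tested, and 3 of 5 were above the untreated range without overlap, against 29.7%. With edgeR 0 were called lower (also 0 at an unadjusted p-value under 0.05 and 0 with DESeq2), against 30.2% of all genes, and 1 of 5, *al-3*, lay below the untreated range, against 39.4%. With library totals alone, 0 were called higher and 2 lower, namely *al-3* (-1.52) and *ylo-1* (-1.17). The median of the 5 genes was 0.86. Over all genes, the median log2 fold change was -0.13 under TMM, 0.02 under the size factors of DESeq2 and -1.36 under totals alone. Relative to this median, *al-2* changed by 1.21 with TMM factors and 1.24 with totals alone, *al-1* by 1.33 and 1.32, *cao-2* by 0.998 and 1.02, *ylo-1* by 0.19 under both and *al-3* by -0.16 and -0.15. A change of scaling moves all genes by nearly the same amount, so the likeness of these paired values is by construction and no further support. The 3 called genes stood above the median gene, and whether their own levels rose rests on the scaling. When a loess trend of log2 counts on gene length was taken out, *ylo-1* was called higher (0.68, edgeR adjusted p = 0.00974) and *al-3* had a log2 fold change of 0.18 that was not called.

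**Figure D4:**
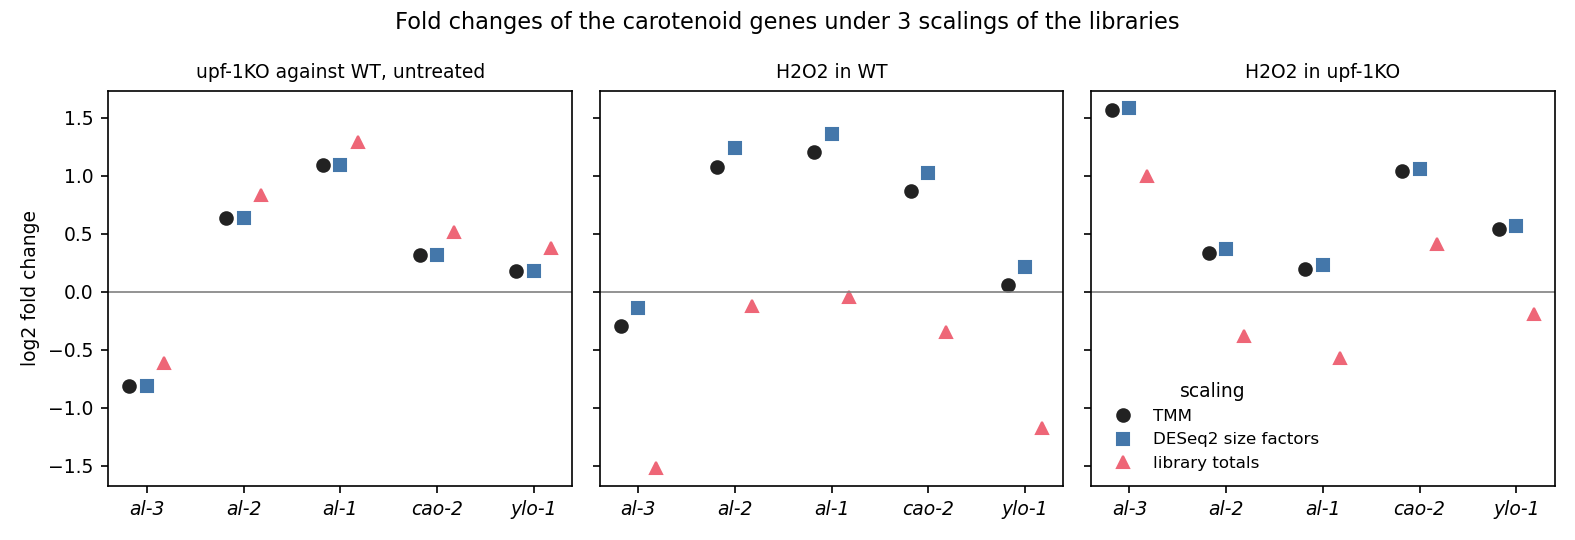
Log2 fold changes (vertical axis) of the 5 genes (horizontal axis) with libraries scaled by TMM factors (circles), DESeq2's size factors (squares) or library totals (triangles) in 3 comparisons. For untreated *upf-1*KO against WT the signs are the same under the 3 scalings, whereas H2O2 in the WT strain gives *al-1* at 1.20 with TMM factors and -0.05 with library totals.

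The third comparison asks how the pathway responds to H2O2 without UPF-1. In *upf-1*KO, *al-3*, *cao-2* and *ylo-1* were called higher with H2O2. *al-2* and *al-1*, both called in the WT strain, had higher untreated values in every *upf-1*KO library than in WT and did not pass the test here. The *al-3* and *cao-2* values were highest in replicate 2, and both log2 fold changes were smaller without it.

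*al-3* had 567, 2278 and 643 normalized counts with H2O2, against 377 to 405 without it. Each treated library was higher, and replicate 2 was at 3.54 times the next highest value. Of all genes tested, 8.36% stood at least as far above both other replicates in this library. The log2 fold change of *al-3* was 1.57 (SE 0.42, edgeR adjusted p = 0.00903), and without replicate 2 it was 0.62 and still called (edgeR adjusted p = 0.00138). The neighbour NCU01426, which overlaps *al-3* by 32 bases, had 266, 352 and 214 normalized counts in these libraries, all well below the 2278 of *al-3* in replicate 2. Replicate 2 stood apart in other genes too, in either direction. Of 7 conidiation genes it was the highest of its group for 1, *acon-3* (193 normalized counts against 27.6 and 24.7), and the lowest for 4, among them *fl* (266 against 491 and 554) and *eas* (75653 against 106233 and 115331). Of 14 light-response genes it was the highest for 11 and the lowest for 3, with *phy-1* at 575 normalized counts against 49.9 and 37.7, *frq* at 972 against 282 and 219.6 and *wc-1* at 469 against 177 and 140.3. It was the lowest of its group for both hyphal genes. The share of all genes for which this library was the highest or the lowest was not counted, so these counts have no background beside them. The part of these genes in the *al-3* and *cao-2* values was not tested.

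*cao-2* had 398, 929 and 464 normalized counts with H2O2 in *upf-1*KO and 251 to 326 without it, so that replicate 2 was again the highest. Its log2 fold change was 1.04 (SE 0.32, edgeR adjusted p = 0.0177) and was 0.57 without replicate 2 (edgeR adjusted p = 0.0428). Leaving out untreated *upf-1*KO replicate 1 or 3 ended the *cao-2* call (adjusted p = 0.0692 and 0.0516 from edgeR). *ylo-1* had 2743, 2317 and 2686 normalized counts, all above its untreated range of 1696 to 1839.7. The *ylo-1* increase of 0.54 on the log2 scale (SE 0.13, edgeR adjusted p = 0.00582) was a 1.45-fold change between the groups. Without replicate 1 or replicate 3 with H2O2 it was 0.35 and 0.36 and was no longer called (adjusted p = 0.113 and 0.104 from edgeR).

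*al-2* had 2958, 2709 and 2846 normalized counts in H2O2-treated *upf-1*KO, above the untreated 2183 to 2294, with a log2 fold change of 0.34 (SE 0.30, edgeR adjusted p = 0.376). *al-1* had 590.4, 357 and 678 normalized counts and overlapped the untreated libraries. In replicate 2, the library with the highest *al-3* and *cao-2*, *al-1* was the lowest of the group. The log2 fold change of *al-1* was 0.19 (95% interval -0.35 to 0.74), so a 2-fold change in either direction lay outside the interval.

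Of the 5 genes, 3 were called higher upon H2O2 in *upf-1*KO, against 26% of all genes tested, and 4 of 5 lay above the untreated range without overlap, against 29.2%. With edgeR 0 were called lower (also 0 at an unadjusted p-value under 0.05 and 0 with DESeq2), against 22.8%, and 0 lay below the untreated range, against 29.3%. With library totals alone, 0 were called higher, with *al-3* at 0.99, *cao-2* at 0.41 and *ylo-1* at -0.19, and *al-1* was called lower (-0.57, edgeR adjusted p = 0.0391). The median log2 fold change of the 5 genes was 0.54, and that of all genes was 0.08 with TMM factors and -0.64 with totals alone. Relative to it, *al-3* changed by 1.49 and 1.63, *cao-2* by 0.96 and 1.05 and *ylo-1* by 0.46 and 0.45, alike again by construction. When only the 6 *upf-1*KO libraries were fitted, *ylo-1* alone was called (0.47, edgeR adjusted p = 0.0262).

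Between the strains under H2O2, *ylo-1* was higher in *upf-1*KO. Its libraries held 2743, 2317 and 2686 normalized counts against 1839.6, 1468 and 1596 in the WT strain, without overlap, and the log2 fold change was 0.66 (SE 0.13, edgeR adjusted p = 0.00505). The *ylo-1* call was lost without WT replicate 2 with H2O2 (0.50, edgeR adjusted p = 0.0552), when only the 6 treated libraries were fitted (0.68, adjusted p = 0.11) and with the length trend removed (0.48, edgeR adjusted p = 0.0752). The other 4 genes overlapped between the treated strains. *al-1*, which differed 2.13-fold between the untreated strains, had a log2 fold change of 0.09 with H2O2 (95% interval -0.46 to 0.63). *al-2* had -0.10 (95% interval -0.76 to 0.55) and, without WT replicate 1 with H2O2, 0.43 with a call (edgeR adjusted p = 0.0137). *al-3* had 1.05 (edgeR adjusted p = 0.0794), which was 0.10 without *upf-1*KO replicate 2 and was called without its replicate 1 (1.25, edgeR adjusted p = 0.0272) or replicate 3 (1.21, edgeR adjusted p = 0.0382), and *cao-2* had 0.49 (adjusted p = 0.265) and 0.01 without *upf-1*KO replicate 2. In this comparison 1 of 5 genes was called higher, against 15.5% of all genes, and 1 of 5 lay above the WT range without overlap, against 18.1%. With edgeR 0 were called lower (also 0 at an unadjusted p-value under 0.05 and 0 with DESeq2), against 12%, and 0 lay below the WT range, against 14.8%. The median log2 fold change was 0.49 for the 5 genes and 0.17 for all. With library totals alone *al-3*, *al-1*, *cao-2* and *ylo-1* were called higher, 4 of 5, and the median of all genes was 0.91. The share of all genes called under totals alone was not counted.

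The difference between the strains in the H2O2 effect was tested as an interaction. No member was called by edgeR. Over all genes, 3.86% were called with a larger log2 change in *upf-1*KO and 2.86% with a smaller one. At an unadjusted p-value under 0.05 the effect was larger in *upf-1*KO for 2 of the 5 members and smaller for 1. The share of all genes at that looser threshold was not counted. The difference, *upf-1*KO minus WT on the log2 scale, was 1.86 for *al-3* (SE 0.59, adjusted p = 0.0797), -1.01 for *al-1* (SE 0.35, adjusted p = 0.113) and 0.49 for *ylo-1* (SE 0.19, edgeR adjusted p = 0.147). DESeq2 called *al-3* (1.72, adjusted p = 0.0387) and *al-1* (-1.13, adjusted p = 0.0393). Without replicate 2 of *upf-1*KO with H2O2, the *al-3* difference was 0.92 and was called by edgeR (adjusted p = 0.00601), as was that of *ylo-1* (0.56, adjusted p = 0.0293). The *al-3* difference was also called without replicate 1 (1.94, edgeR adjusted p = 0.0401) or replicate 3 (1.90, edgeR adjusted p = 0.0493) of that group, and the *al-1* difference without this replicate 3 (-1.42, edgeR adjusted p = 0.0406) or without WT replicate 1 with H2O2 (-1.38, edgeR adjusted p = 0.0317). The differences of *al-2* (-0.74, adjusted p = 0.292) and *cao-2* (0.18, edgeR adjusted p = 0.833) did not pass the test.

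Gene by gene and in normalized counts, the order of the 4 groups was not shared within the pathway. *al-1* was lowest in the untreated WT strain, with all 3 other groups above it and overlapping each other. *al-2* was also lowest there, and the wide range of the treated WT libraries (1973 to 5179) spanned both *upf-1*KO groups. *cao-2* ran from the untreated WT strain through untreated *upf-1*KO and treated WT to treated *upf-1*KO by group means of 234, 290.4, 425 and 597 normalized counts, where neighbours overlapped except the untreated WT strain and untreated *upf-1*KO. *ylo-1* was highest in treated *upf-1*KO, above every library of the other 3 groups, among which the treated WT libraries overlapped both untreated groups. *al-3* was lowest in untreated *upf-1*KO, again without overlap. Measured as the root mean square difference of centred log2(normalized count + 1) over the 12 libraries, the most alike pair was *al-2* and *cao-2* (0.40) and the least alike *al-3* and *al-1* (0.9997).

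By the same measure, and among the 5602 other genes whose mean reached 100 normalized counts, the gene most like *ylo-1* was *tng* (NCU03436) at 0.11, and that most like *cao-2* was NCU09333 at 0.15. NCU04091 was nearest to *al-1* at 0.18, NCU11030 to *al-2* at 0.19 and NCU11187 to *al-3* at 0.20. The next in line were NCU16851 for *ylo-1* (0.15), NCU00565 for *cao-2* (0.16), NCU03401 for *al-1* (0.19), *acw-4* (NCU09263) for *al-2* (0.22) and NCU01304 for *al-3* (0.25). The median distance of these other genes was between 0.67 and 0.88 for the 5 members.

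Among the genes before the branch to carotenoids, only *fpp* (NCU01175), for farnesyl diphosphate synthase, carried a symbol in the reference table. It supplies the substrate that AL-3 extends and that the sterol branch also uses. *fpp* had 1649 ± 152 normalized counts in the untreated WT strain and 1178 ± 42.3 in *upf-1*KO (SD, n = 3), a log2 fold change of -0.49 that was not called (edgeR adjusted p = 0.133). With H2O2 it was called higher in *upf-1*KO (0.69, adjusted p = 0.0146) and not in the WT strain (0.43, edgeR adjusted p = 0.0869). As CPM, counts scaled by library totals alone, the mean of *fpp* in *upf-1*KO was 229.6 without H2O2 and 218 with it, the opposite direction. Of 3 ergosterol genes with a symbol, *erg-1* was called in each of the 4 comparisons of 2 groups, lower in *upf-1*KO without H2O2 (-1.03) and with it (-0.90), and higher with H2O2 in the WT strain (0.89) and *upf-1*KO (1.03; adjusted p between 0.00816 and 0.029 from edgeR). On the CPM scale the mean of *erg-1* in the WT strain was 425 CPM without H2O2 and 328 with it, the opposite direction. *erg-4* was called once, lower with H2O2 in the WT strain (-0.80), and *erg-3* in none of the 4. *cao-1* (NCU07008), a relative of *cao-2* that is known to cleave stilbenes and not carotenoids, rose from 57.0 ± 5.94 to 125 ± 7.17 normalized counts (SD, n = 3) in untreated *upf-1*KO. Its log2 fold change of 1.13 (edgeR adjusted p = 0.0111) set it beside *al-1*, while *cao-2* at 0.31 was not called.

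Of 14 genes of the light response, 3 were called higher in untreated *upf-1*KO (*nop-1*, *phy-2* and *bli-3*), against 10.4% of all genes tested, and 0 lower, against 4.71%. Upon H2O2 in the WT strain 2 were called higher (*bli-3* and *bli-4*) and 4 lower (*vvd*, *frq*, *phr* and *sub-1*), against 26.5% and 30.2% of all genes, and in *upf-1*KO 1 higher (*rco-1*) and 4 lower (*wc-2*, *frq*, *phr* and *sub-1*), against 26% and 22.8%. Between the treated strains 4 were higher in *upf-1*KO (*vvd*, *nop-1*, *phy-2* and *bli-3*), against 15.5%, and 0 lower, against 12%. The *nop-1* and *phy-2* calls rest on few reads. Untreated, *nop-1* had 3, 5 and 1 reads in WT and 31, 21 and 32 in *upf-1*KO. *phy-2* had 3, 5 and 5 against 16, 9 and 19. With H2O2 the reads were 0, 0 and 2 against 8, 11 and 5 for *nop-1*, and 4, 1 and 3 against 13, 21 and 15 for *phy-2*. On the CPM scale *rco-1* went from 246 to 220.5 upon H2O2 in *upf-1*KO, against its call. The median log2 fold change of the 14 genes was 0.47 in untreated *upf-1*KO and -0.67 upon H2O2 in the WT strain, against -0.13 for all genes in both. *wc-1*, for the photoreceptor that switches on the *al* genes, was called in none of the 4 comparisons, and had 311 ± 21.6 normalized counts in the untreated WT strain and 296 ± 16.0 in *upf-1*KO (SD, n = 3). *wc-2*, for its partner, had a log2 fold change of 0.44 in untreated *upf-1*KO (adjusted p = 0.0632) and fell by 0.50 on the log2 scale upon H2O2 in that strain (edgeR adjusted p = 0.0139). *vvd*, which damps the light response, fell upon H2O2 in the WT strain from 1506 ± 144 to 878 ± 290 normalized counts (SD, n = 3). Its log2 fold change there was -0.78 (edgeR adjusted p = 0.00654), and *al-2* and *al-1* were called higher. In untreated *upf-1*KO *vvd* lay above every WT library (0.50, edgeR adjusted p = 0.12), and *al-1* was called higher. Upon H2O2 in *upf-1*KO *vvd* lay below every untreated library of that strain (-0.49, edgeR adjusted p = 0.0639), and *al-2* and *al-1* were not called. The part of *vvd* in the *al* values was not tested. *bli-3*, a blue-light-induced gene, was called higher in untreated *upf-1*KO (1.29), upon H2O2 in WT (0.74) and between the treated strains (1.01). *al-1* was called in the first and the second of these comparisons, which share the untreated WT libraries. Scaled by library totals alone, the mean of *bli-3* in the WT strain was 54.7 CPM without H2O2 and 39.1 with it, so that its direction, like that of *al-1*, rests on the scaling.

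Because conidia are rich in carotenoids, 7 genes of conidiation were read as markers of asexual development. In untreated *upf-1*KO, *con-6*, *con-8* and *con-13* were called higher, 3 of 7 against 10.4% of all genes tested, at low levels. *con-6* had 9.04 ± 1.93 normalized counts in untreated WT against 28.3 ± 4.88 in *upf-1*KO (SD, n = 3), *con-8* had 2.62 ± 1.10 and 25.9 ± 3.75, and *con-13* had 1.83 ± 1.76 and 12.3 ± 5.75. *con-10* (log2 fold change 1.39), *acon-3* (-1.35), *eas* (-0.36) and *fl* (-0.10) were not called. *acon-3* (158 ± 4.66 in untreated WT, 61.6 ± 9.04 in *upf-1*KO) and *eas* lay below the WT range without overlap, as did 40.3% of all genes. The summed level of the 7 markers, most of it from the hydrophobin gene *eas*, ran from 67147 to 81922 normalized counts in untreated WT and from 56797 to 61491 in untreated *upf-1*KO. With H2O2 it ran from 9996 to 10171 in WT and from 76296 to 116128 in *upf-1*KO. No marker was at 0 reads in the untreated libraries. Upon H2O2 in the WT strain, 4 of the 7 (*eas* at -2.96, *fl*, *acon-3* and *con-6*) were called lower and 2 (*con-8* and *con-10*) higher, against 30.2% and 26.5% of all genes. *con-8* had 2, 2 and 14 reads with H2O2 and 3, 5 and 2 without it, so that 1 library was high and the groups overlapped in normalized counts, and *con-13* had no read in 2 libraries and *con-6* in 1. The *con-10* call also rests on few reads, 4, 7 and 6 with H2O2 and 3, 7 and 2 without it. In *upf-1*KO with H2O2, *eas* (0.75) and *con-6* (2.39) were called higher, 2 of 7 against 26% of all genes, and against the treated WT strain *eas* (3.35), *con-6* and *fl* (0.72), 3 of 7 against 15.5%. On the CPM scale the mean of *eas* in *upf-1*KO was 11508 without H2O2 and 11477 with it. The part of these markers in the carotenoid values was not tested. Both markers of hyphae, *hex-1* and *act*, were found in every library, summing to 20078 to 42799.6 normalized counts, and *hex-1* was called lower in untreated *upf-1*KO (-1.06, edgeR adjusted p = 0.0307) and higher upon H2O2 in *upf-1*KO (0.78, edgeR adjusted p = 0.045). For the call upon H2O2 the groups overlapped, with treated replicate 2 at 12156 normalized counts against 12018 to 13502 untreated. On the CPM scale the mean of *hex-1* in *upf-1*KO was 2511 without H2O2 and 2494 with it.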

How the data were processed

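Total RNA of mycelia was sequenced in 12 libraries, 3 in each of 4 groups of strain and H2O2 treatment taken from the sample titles. Reads were mapped by the authors to NC12 with HISAT2 2.2.1 and assigned to genes with featureCounts (Subread 2.0.1, versions per the submitters' processing notes), with no strand setting given in the sources used here. The deposited counts are whole numbers and not normalized. The authors also deposited FPKM values from the same reads, which were not used for any result. The count test used edgeR 4.0.16 under R 4.3.3 (TMM factors, filterByExpr at its defaults, glmQLFit and glmQLFTest over all 12 libraries, 1 mean per group), with standard errors (SE) derived from F statistics and Benjamini-Hochberg adjustment over 7878 genes. Intervals on fold changes come from the fitted spread. Gene symbols came from a RefSeq table (NC12) that matched 10588 of the 10685 identifiers. Of 8 genes fixed for isoprenoid supply, 7 had no symbol there or no row and were not analysed here.

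The members, the lists of other genes, the tests and the alternatives were chosen with earlier results of these data known. The genes named are the 5 members, the 2 genes nearest to each, and from each list those called in the most comparisons, with *wc-1*, *wc-2* and *vvd* always given. The naming of *erg-3*, *erg-4*, the other light-response genes and the conidiation genes followed sight of their values. Alternatives tried were DESeq2 1.42.0, its size factors (RLE), library totals, no filter, at least 10 counts in every library, the 2-fold rule of the study (with unadjusted p under 0.05), a fit of only the 2 groups compared, a block for the replicate number, removal of the length trend (loess, span 0.5), and each library left out. Leaving out 2 libraries together was added after seeing the data.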

Additional observations from a re-analysis of the deposited data

How the results depend on the processing

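Each log2 fold change of the 5 genes was recomputed in 545 combinations of gene, comparison and alternative. Direction and call were the same in 457, a call was lost in 27 and gained in 43, and the sign was opposite in 26, some of which also lost or gained a call. In untreated *upf-1*KO against WT, no sign changed. Where no cause is named below, the cause was not tested. Shares of all genes called were counted for the main fit alone, so the counts under the alternatives have no background beside them. When only the 2 groups compared were fitted, which leaves fewer libraries to set the spread, 4 genes were called higher and 1 lower in untreated *upf-1*KO, 1 higher upon H2O2 in *upf-1*KO and 0 between the treated strains.

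With library totals alone, 0 genes were called higher and 2 lower upon H2O2 in WT, 0 higher and 1 lower upon H2O2 in *upf-1*KO, 4 higher between the treated strains and 2 in the interaction. Signs turned upon H2O2 in WT for *al-2* (-0.12), *al-1* (-0.046), *cao-2* (-0.35) and *ylo-1* (-1.17), in *upf-1*KO for *al-2* (-0.38), *al-1* (-0.57) and *ylo-1* (-0.19), and between the treated strains for *al-2* (0.57). The median of all genes moved by construction, to -1.36, -0.64 and 0.91.

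With the length trend removed, 0 genes were called higher between the treated strains, while *al-3* upon H2O2 in WT was 0.18, *al-1* between the treated strains -0.12 and the *cao-2* interaction -0.053. *al-2* upon H2O2 in *upf-1*KO was then called (0.84, edgeR adjusted p = 0.0373). *al-1* between the treated strains, near 0, was -0.034 with DESeq2, -0.036 with RLE size factors and -0.048 with no filter, and *ylo-1* upon H2O2 in WT was -0.00091 with at least 10 counts in every library. DESeq2 called 1 gene higher and 1 lower in the interaction, as did the 2-fold rule with unadjusted p-values.

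With each library left out in turn, the genes called in untreated *upf-1*KO ranged from 0 to 2 higher and 0 to 1 lower. Upon H2O2 they ranged from 2 to 3 higher in WT and also in *upf-1*KO, with 0 to 1 lower in WT. Between the treated strains 0 to 2 were higher, and in the interaction 0 to 2 were higher and 0 to 1 lower. *al-1* upon H2O2 in *upf-1*KO ranged from -0.15 to 0.42 and between the treated strains from -0.21 to 0.32, *al-2* between the treated strains from -0.43 to 0.43 and the *cao-2* interaction from -0.30 to 0.30.

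Leaving out WT replicate 1 and *upf-1*KO replicate 2 with H2O2 together was chosen after seeing the data, for the values of these genes in them, so that the spread is narrowed by construction. Then 4 genes were called higher and 1 lower in untreated *upf-1*KO, 1 lower upon H2O2 in WT, 5 higher upon H2O2 in *upf-1*KO, 3 higher between the treated strains, and 2 higher and 1 lower in the interaction. *ylo-1* upon H2O2 in WT was -0.037 and *al-2* between the treated strains 0.55. With the replicate number as a block, only the *cao-2* call upon H2O2 in WT was lost (0.87, edgeR adjusted p = 0.0519). Correlations of the deviations of same-numbered libraries ran from -0.34 to 0.36 across genes, not all above 0.1, and in 6 of 36 cases a library correlated best with its own number in another group, so the numbers were not taken as pairs. Depth was ample for the 5 genes. The limits are 3 libraries a group, uneven libraries in both treated groups and the scaling between untreated and treated libraries.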
